A study of Homo sapiens with 8 samples.

Results

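KMS11 is 1 of 4 human multiple myeloma cell lines in this series, and it is described here against the other 3, KMS18, KMS34 and OPM2. Its members are 2 of the 8 arrays, chosen by the cell line the samples were labelled with: 1 KMS11 culture with the control and 1 with a knockdown of MMSET I, the short protein isoform of the histone methyltransferase gene NSD2. The other 6 arrays are 1 control and 1 knockdown culture each of KMS18, KMS34 and OPM2. Lentivirus was given to all 8 cultures with polybrene at 8 µg/mL, the cells were collected 48 h after a medium change, and what the control virus carried is not given in the sources used here. All 4 lines carry the t(4;14) translocation, so that every comparison below is between myelomas of 1 genetic class. Each line descends from the tumour of a different patient and had no repeat culture of either treatment, so a difference named for KMS11 is a difference between these cultures.

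Multiple myeloma is a cancer of plasma cells, the antibody-secreting end stage of the B lineage. The t(4;14) translocation brings immunoglobulin heavy chain enhancers next to NSD2 and, on the other derivative chromosome, next to FGFR3, a receptor tyrosine kinase for fibroblast growth factors. KMS11 is also known to carry an immunoglobulin translocation of MAF, the gene of a leucine-zipper transcription factor whose targets in myeloma include a D-type cyclin and adhesion molecules.

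The values are array intensities, which have no absolute unit and are not compared between genes here. They were put on the log2 scale, and KMS11 was compared with each other line in limma with the treatment as a covariate. A gene is called above (or below) when KMS11 differed the same way from all 3 lines and the largest of the 3 p-values, after Benjamini-Hochberg adjustment, was under 0.05. Unless said otherwise, a difference is the one on the log2 scale from the nearest other line, with its standard error (SE). Values are given in the order control, knockdown.

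NSD2, the targeted gene, had intensities of 733 and 670.0 in KMS11, 679.9 and 549 in KMS18, 744 and 677 in KMS34, and 814 and 728 in OPM2. KMS11 lay inside the range of the other lines, and the knockdown array was the lower of the pair in each line. The table does not say which NSD2 isoforms its probes cover. Of the plasma cell markers, SDC1 (syndecan-1, CD138) was 894 and 1071 in KMS11 against 844 to 1112 in the other arrays, and IRF4, a transcription factor myeloma cells depend on, was 2639.8 and 2254 against 2642 to 4673. XBP1, which drives the secretory programme, was 2256 and 2118 against 1266 to 2766. In KMS11, SDC1 and XBP1 lay inside the range of the other lines. Both KMS11 arrays lay below every array of the other lines for IRF4, and none of the 3 was called. These 3 markers were chosen after their values were seen and do not stand for all plasma cell genes. Of 12 plasma cell genes tested, 1 was called above (CD28, 8.3%) and 1 below (CD38, 8.3%), beside 9.97% and 2.92% of all genes. The differences of the 12 from the mean of the other lines had a median of -0.116, with 5 over 0 and 7 under 0. The arrays of the same line correlated at 0.991 to 0.993 over all genes tested, and KMS11 correlated with the other lines at 0.880 to 0.915.

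KMS11 was above each other line in 1108 of 11109 genes tested (9.97%) and below each in 324 (2.92%), so 77.4% of the calls were above. After quantile normalization the counts were 768 and 459, and 62.6% of calls were above. With a size rule of at least 2-fold from the nearest line, 174 genes were above (1.57%) and 25 below (0.225%), and in all 199 both KMS11 arrays lay outside the range of the other 6. Over all genes, both KMS11 arrays were above the other 6 in 2144 (19.3%) and below them in 1541 (13.9%). The 174 had a median KMS11 mean intensity of 304.4 against 89.21 in the other lines, and the 25 had 96.59 against 382.2. By the same rules 50, 97 and 48 genes were at least 2-fold above in KMS18, KMS34 and OPM2, and 103, 36 and 121 were below. The error of these tests is the spread between the 2 cultures of a line once a treatment effect common to all lines is taken out. Those 2 cultures differ in treatment, so a treatment effect particular to a line is part of this error. Spread between like cultures was not measured. With each line as 1 replicate, 1 against 3, limma called 0 genes above or below at an adjusted p under 0.05, and 771 genes reached an unadjusted p under 0.05. That fit and the next compared KMS11 with the other lines as 1 group. Their calls were counted only where both KMS11 arrays lay outside the range of the other 6, a different rule from that of the 1108 and 324. With line as a random block, 82 were above and 9 below. Of the called genes named below, those that kept their call in that fit were THEMIS, EDNRB, LAPTM4B, NEB, FN1, LCP2, SAT2, CENPV, FEZF1, ENPP2, HERC5, NES, DSP, IGF2BP1, PLXNA3, PLXND1, ANXA9, IL32, L1CAM, FGFR2, HEY1, CTSL, AFG2A, ZNF189, EAF2, MEF2C, IKZF1, ELF1, ERO1B, FBXO16, ZNF681 and PPDPF. The other called genes given with values below lost it. The smallest p that an exact permutation of 1 line among 4 can reach is 0.25, so a p-value here measures how far these cultures stood apart and not how KMS11 differs from t(4;14) lines in general.

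The 4 genes with the largest folds above the other lines were THEMIS, EDNRB, LAPTM4B and NEB, which also served as markers of the line, so their values are a description. THEMIS, a scaffold of T cell receptor signalling in developing thymocytes, was 1301 and 1542 in KMS11, 31.7 and 30.5 in KMS18, 42.8 and 38.8 in KMS34, and 97.1 and 89.6 in OPM2. EDNRB, the type B endothelin receptor, was 737 and 654 in KMS11, 41.1 and 45.5 in KMS18, 41.5 and 39.3 in KMS34, and 47.1 and 42.6 in OPM2. LAPTM4B, a membrane protein of late endosomes and lysosomes, was 1660.1 and 1515 in KMS11, 33.0 and 33.5 in KMS18, 125 and 102 in KMS34, and 34.8 and 33.3 in OPM2. Both KMS11 arrays were high for these genes. The 6 other arrays were at or near the floor of the table, a log2 mean of 5.54 or an intensity of 46.7, except for THEMIS in OPM2 and LAPTM4B in KMS34, which were somewhat above it. NEB, which encodes the giant thin-filament protein nebulin of skeletal muscle, was 606 and 579.6 in KMS11, 49.4 and 46.7 in KMS18, 47.8 and 49.8 in KMS34, and 50.9 and 49.4 in OPM2. The differences from the nearest line were 3.92 (SE 0.11) for THEMIS, 3.81 (SE 0.097) for LAPTM4B and 3.56 (SE 0.088) for NEB. The nearest line for EDNRB, OPM2, was under the floor, and KMS11 was at least 14.9-fold above it.

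**Figure D1:**
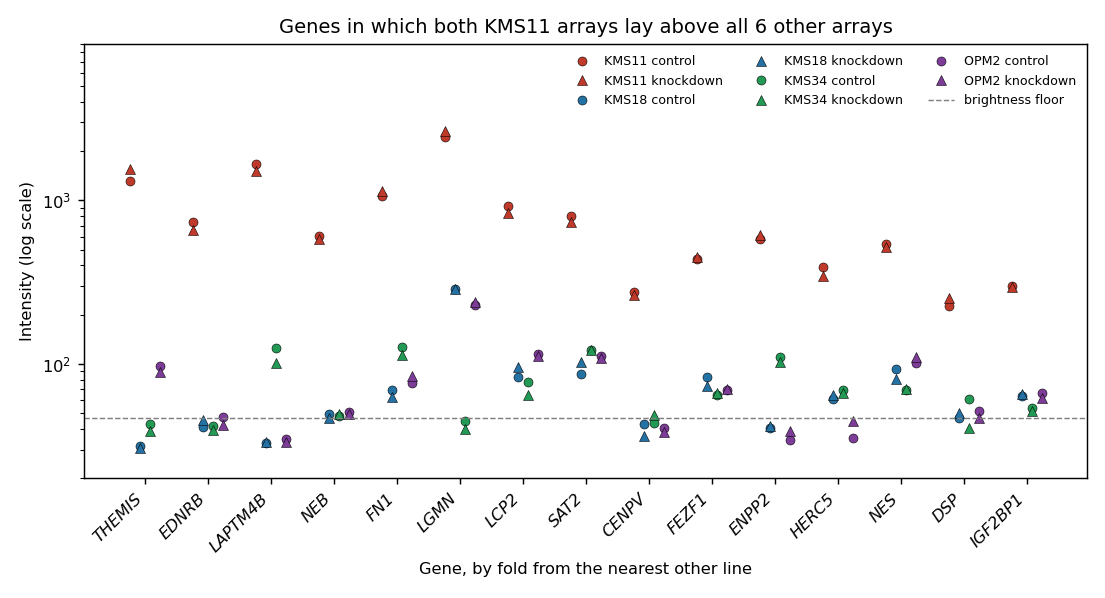
Intensities (log axis) on the 8 arrays for the 15 genes with the largest folds above the nearest other line, in order of that fold; colours are the lines, marker shapes the treatment, and the dashed line is the floor at 46.7. Both KMS11 points lie above all 6 other points for each gene, which the choice of these genes required.

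THEMIS and NEB are genes of T cells and muscle, and the other genes of those cell types were set beside them. Of 20 T and NK cell genes tested, 2 were above (10.0%, near the 9.97% of all genes), THEMIS and LAT. LAT, the adaptor that T cell receptor kinases phosphorylate, was 795 and 766 in KMS11 and 216 to 383 in the others. The other 18, CD2, CD5, CD247 and LCK among them, are those left once the called genes were set aside. Their summed intensity was 1337.5 to 1420.3 in KMS11 and 1307.6 to 1515.5 in the other lines. Of these 18, 10 were under 100 on all arrays. The antigen receptor adaptor gene LCP2 and the costimulatory receptor gene CD28, both given below, were also above. Neither is among the 20, so the share of that list depends on which genes were placed in it. Of 11 skeletal muscle genes, NEB and TMOD1, a capping protein of actin filaments, were above (18.2%). The sum of the other 9 was 705.0 to 745.9 against 712.0 to 867.0, and 6 of the 9 were under 100 on all arrays. With so many dim genes, the sums cannot show whether other genes of these cell types were active. Of 11 B cell genes, CD72 was above (9.1%), at least 1.32-fold from its nearest line, which was under the floor. None of the 7 myeloid, 3 stromal or 5 melanocyte genes was called. Melanocytes also express EDNRB, and their 5 genes summed to 390.9 to 416.0 in KMS11 and 350.3 to 389.3 in the others. The part of other cell types in these results was not tested. In bulk RNA, a change in the number of cells that express a gene and a change in RNA per cell cannot be told apart.

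The next genes by fold were matrix, protease and signalling genes. FN1, the gene of the extracellular matrix protein fibronectin, was 1066 and 1139 in KMS11, 69.1 and 63.2 in KMS18, 127 and 113 in KMS34, and 76.4 and 84.6 in OPM2. LGMN, the lysosomal cysteine protease legumain, was 2439.7 and 2635 in KMS11, 289 and 287 in KMS18, 44.8 and 40.0 in KMS34, and 229 and 239.9 in OPM2. LCP2, which encodes the adaptor SLP-76 of antigen receptor signalling, was 927 and 834 in KMS11, 83.3 and 96.4 in KMS18, 77.5 and 64.6 in KMS34, and 115 and 112 in OPM2. For each of the 3 the KMS11 pair stood well clear of every other array, although LGMN was at the floor in KMS34 and intermediate in KMS18 and OPM2. FN1 was 9.20-fold above its nearest line, KMS34 (log2 3.20, SE 0.10, limma adjusted p = 1.15e-09). LGMN was 8.80-fold above KMS18 (log2 3.14, SE 0.095, limma adjusted p = 8.29e-10). LCP2 was 7.77-fold above OPM2.

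SAT2, a member of the polyamine acetyltransferase family, had 798 and 733 in KMS11 and 86.3 to 123 elsewhere. ENPP2 encodes autotaxin, the secreted enzyme that makes lysophosphatidic acid, and its values were 583 and 610.1 in KMS11, 40.9 and 41.6 in KMS18, 109.9 and 103 in KMS34, and 34.2 and 39.2 in OPM2. KMS34 was again the nearest line, 5.61-fold lower. Among genes of other lineages, NES (the neural intermediate filament nestin) was 537 and 515 against 69.7 to 109.7, and DSP (desmoplakin of cell junctions) was 225 and 254 against 40.9 to 61.2. FEZF1, a zinc finger factor of forebrain development, was 439 and 452 against 64.4 to 83.3, and the RNA-binding protein gene IGF2BP1, mostly active in embryos, was 300.1 and 295 against 51.8 to 66.5. CENPV, which encodes a centromere protein, was 276 and 263 against 36.3 to 49.1, mostly under the floor, and was at least 5.78-fold above its nearest line. For these 5 genes both KMS11 arrays were above all 6 others, which the choice of the genes required.

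MAF was 1158 and 1424 in KMS11, 72.2 and 54.2 in KMS18, 414 and 379 in KMS34, and 166 and 173 in OPM2. It was highest in KMS11 and lowest in KMS18, with KMS34 and OPM2 between, and no line overlapped another. KMS11 was 3.24-fold above KMS34 (log2 1.70, SE 0.14, limma adjusted p = 3.27e-06). MAF was the 1 gene called of 8 tested in a list of MAF genes and their myeloma targets. That was 12.5% of the list, beside 9.97% of all genes above. CCND2, the D-type cyclin, was 1158 and 1032 in KMS11, 569 and 545 in KMS18, 856 and 793 in KMS34, and 1077 and 897 in OPM2, and CCR1, a chemokine receptor, was 446 and 569 in KMS11, 56.3 and 78.0 in KMS18, 276 and 279 in KMS34, and 481 and 499 in OPM2. DEPTOR, an inhibitor of mTOR kinase, was 1549 and 1473 in KMS11, 347 and 466 in KMS18, 1851 and 1732 in KMS34, and 467 and 488 in OPM2. The OPM2 arrays overlapped those of KMS11 for CCND2 and CCR1, and both KMS34 arrays lay above KMS11 for DEPTOR, so none of the 3 was called.

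FGFR3, the translocation partner on chromosome 4, was 2410.3 and 2256 in KMS11, 1403 and 1326 in KMS18, 1061 and 889 in KMS34, and 1457 and 1358 in OPM2. Both KMS11 arrays were above all others, 1.66-fold above the nearest line, OPM2 (log2 0.73, SE 0.090, limma adjusted p = 0.000114). The shares of all genes were 9.97% above and 2.92% below. Of 18 tested genes of fibroblast growth factor signalling and its MAP kinase feedback, 5 were above (27.8%) and 0 below. Besides FGFR3 these were the receptors FGFR2, at 151 and 195 in KMS11, 57.3 and 65.3 in KMS18, 57.2 and 58.1 in KMS34, and 54.7 and 66.3 in OPM2, and FGFR4, the ligand FGF2, and the ETS factor ETV1, whose call was lost after quantile normalization. FGF2 was 304 and 372 in KMS11, 135 and 167 in KMS18, 68.3 and 82.5 in KMS34, and 47.4 and 52.9 in OPM2, and its gene overlaps NUDT6 on the opposite strand, which was also above. The feedback genes DUSP6 and SPRY2 had KMS11 differences from the mean of the others of -0.45 and -0.20 and were not called. Of the 11 tested genes around the NSD2 breakpoint, FGFR3 and RNF4, a ubiquitin ligase of SUMO-modified proteins, were above (18.2%). The RNF4 call, at a log2 difference of 0.51, was lost after quantile normalization.

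HGF, hepatocyte growth factor, which myeloma cells are known to secrete, was 858 and 846 in KMS11, 31.8 and 35.4 in KMS18, 229 and 217 in KMS34, and 32.7 and 35.0 in OPM2. KMS11 was 3.82-fold above KMS34, and KMS18 and OPM2 were under the floor. It was the 1 gene called of 12 bone remodelling factors (8.3%, beside 9.97% of all genes above). IL32, a cytokine gene of lymphoid cells, was 198 and 197 in KMS11 against 51.4 to 56.2, and RGS1, a regulator of G protein signalling in lymphocytes, was 284 and 349 against 33.2 to 96.2. L1CAM, a neural adhesion molecule, was 152 and 214 against 53.5 to 58.8, the tetraspanin gene CD9 201 and 215 against 50.1 to 113, and ICAM1, the ligand of the integrin LFA-1, 1017 and 1075 against 76.4 to 548. These were the 3 above of 16 adhesion genes (18.8%). The ligand genes CD48 and CD58 were below (12.5% of the 16, beside 2.92% of all genes). Their log2 differences were small, -0.49 and -0.42, and each call was lost when some arrays were left out.

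Cereblon is the ubiquitin ligase receptor through which lenalidomide-type drugs act, and its best known substrates are the lymphoid zinc finger factors IKZF1 and IKZF3. Of 8 tested genes of this list, 2 were above and 1 below in KMS11, and the substrates went opposite ways. IKZF1 was 106 and 97.1 in KMS11, 272 and 281 in KMS18, 456 and 417 in KMS34, and 437 and 428 in OPM2. IKZF3 was 222 and 231 in KMS11, 59.2 and 78.2 in KMS18, 66.8 and 50.7 in KMS34, and 57.9 and 62.7 in OPM2. KMS11 was lowest of the lines for IKZF1, by 2.73-fold (log2 -1.45, SE 0.090, limma adjusted p = 4.02e-07), and highest for IKZF3, by 3.33-fold (log2 1.74, SE 0.14, limma adjusted p = 4.5e-06), and neither set of arrays overlapped. CUL4B, a cullin scaffold of such ligases, was above by 0.60.

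Few genes were well below the other lines. SPN encodes leukosialin (CD43), a sialomucin of leukocyte surfaces, and was 62.4 and 45.8 in KMS11, 246 and 273 in KMS18, 613 and 780.3 in KMS34, and 964 and 1372 in OPM2. EAF2, a partner of the ELL transcription elongation factors, was 99.1 and 76.8 in KMS11, 320.0 and 361 in KMS18, 375 and 370.1 in KMS34, and 462 and 408 in OPM2. MEF2C, a transcription factor of B cells and muscle, was 56.7 and 59.0 in KMS11, 217 and 235 in KMS18, 210.5 and 207 in KMS34, and 408 and 451 in OPM2. KMS11 was the lowest line for all 3 without overlap, which the choice of these genes required. The fold below the nearest line was 4.85 for SPN (limma adjusted p = 1.91e-06), 3.90 for EAF2 (limma adjusted p = 3e-07) and 3.60 for MEF2C. OPM2 had the highest SPN level of the lines and also the highest MEF2C level. CD38, the surface enzyme that therapeutic antibodies against myeloma target, was 50.6 and 83.2 in KMS11, 416 and 365 in KMS18, 168 and 168 in KMS34, and 251 and 278 in OPM2. It was the 1 plasma cell gene of 12 called below (2.59-fold under KMS34, limma adjusted p = 8.12e-05). CD28, a costimulatory receptor found on some myelomas, was the 1 called above, at 2273 and 2481 against 837 to 1564.

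**Figure D2:**
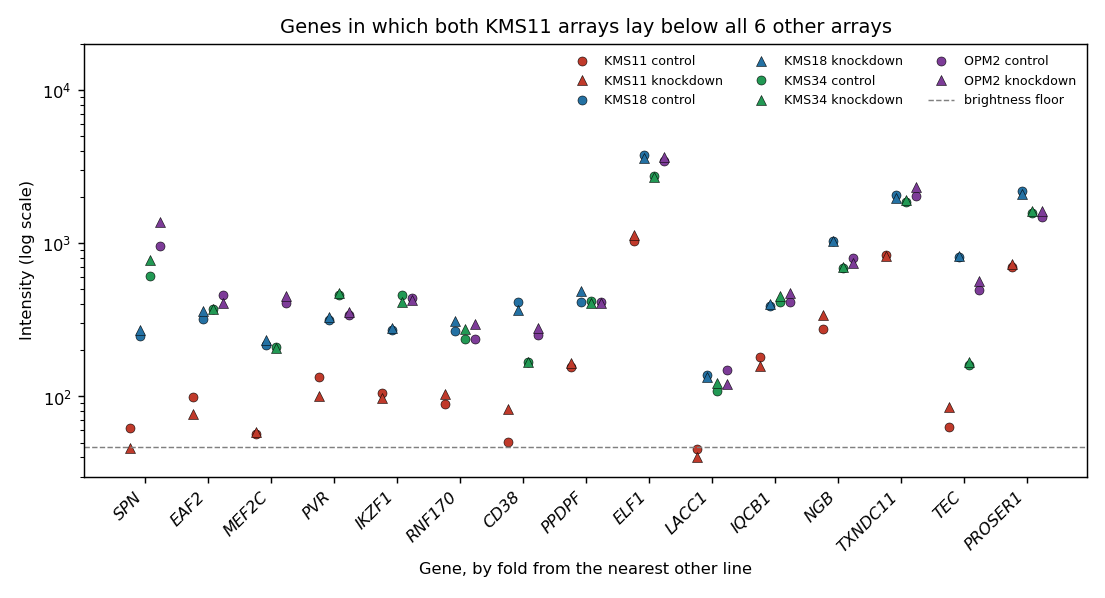
Intensities (log axis) on the 8 arrays for the 15 genes with the largest folds below the nearest other line, drawn as in the plot of the genes above. Both KMS11 points lie under all 6 other points for each gene, which the choice of these genes required, with SPN at 62.4 and 45.8 in KMS11.

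Among the other genes below, PVR, a ligand of NK cell receptors, was 135 and 100.0 in KMS11 against 314 to 474, and ELF1, an ETS factor of lymphoid cells, was 1028 and 1139 against 2692 to 3797. TEC, a cytoplasmic tyrosine kinase, was 63.5 and 84.8 in KMS11, 819 and 826 in KMS18, 162 and 168 in KMS34, and 499 and 566 in OPM2. The 3 other lines differed widely for TEC, with KMS18 highest.

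The lists of signalling and regulatory genes were read beside the share of all genes called, 9.97% above and 2.92% below. Of 17 NF-kB pathway genes, 4 were above and 0 below, ICAM1, the subunit genes NFKB2 (488 and 544 against 132 to 324) and NFKB1 (593 and 615 against 274 to 444), and TRAF1, an adaptor gene induced by the pathway. The median difference of the 17 from the mean of the other lines was 0.73, against -0.0072 over all genes. After quantile normalization 3 were above and 1 below, and the call of NFKB1 was lost. Of 24 cytokine receptor and JAK-STAT genes, 5 were above and 3 below. PIM1, a serine kinase induced by STAT factors, was 1110.2 and 1039 in KMS11, 491 and 473 in KMS18, 513 and 474 in KMS34, and 181 and 169 in OPM2, and SOCS3, a feedback inhibitor, was 286 and 248 against 101 to 167. IL6R, the receptor of the main myeloma growth factor, was below, at 423 and 439.9 against 637 to 1245, and so was CISH, another feedback inhibitor, by -0.50. The CISH call was lost without the KMS11 or the KMS18 knockdown array.

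**Figure D3:**
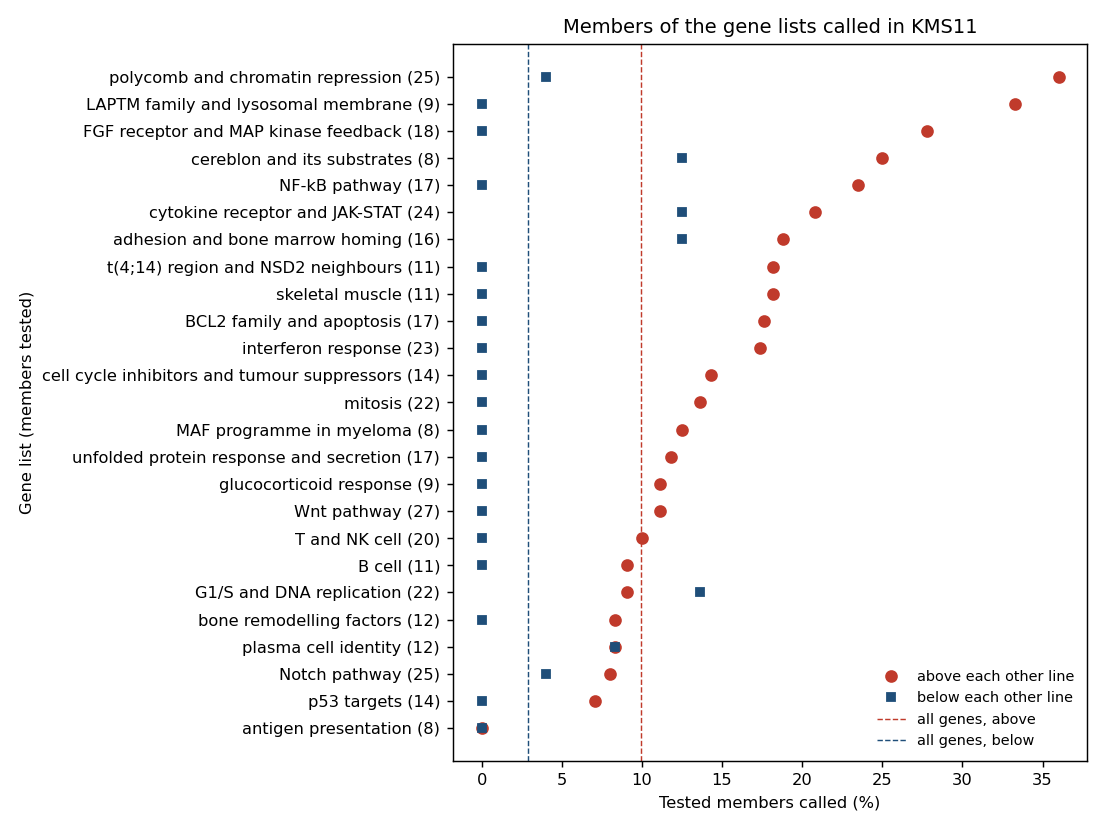
Share (percent, x axis) of the tested members of each gene list called above (circles) or below (squares) each other line, with the number tested in brackets; dashed lines are the shares of all genes, 9.97% and 2.92%. Polycomb and chromatin repression (9 of 25 above) and NF-kB (4 of 17) lie to the right of the line for all genes, and several lists lie at 0.

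Of 25 polycomb and chromatin repression genes, 9 were above (36.0%) and 1 below (4.0%), beside 9.97% and 2.92% of all genes. After quantile normalization 4 were above. KDM5B, a histone demethylase, was 184 and 246 in KMS11, 92.6 and 77.5 in KMS18, 75.6 and 84.5 in KMS34, and 102 and 104 in OPM2, and TET2, an oxidase of methylated DNA, was 291 and 308 in KMS11, 150.4 and 123 in KMS18, 119 and 115 in KMS34, and 155 and 171 in OPM2. The polycomb protein gene PHF19 was 719 and 638 against 341 to 486. EZH2, the main polycomb methyltransferase, had a difference of -0.12 from the mean of the others and was not called. Of the Notch genes, 2 of 25 were above (8.0%) and 1 below (4.0%). The related repressor genes HEY1 and HEY2 went opposite ways, with HEY1 at 115 and 145 in KMS11, 41.2 and 48.5 in KMS18, 35.4 and 36.5 in KMS34, and 27.8 and 28.9 in OPM2 and HEY2 at 117 and 130.1 in KMS11, 278 and 281 in KMS18, 651 and 563 in KMS34, and 259.9 and 272 in OPM2. KMS11 was the highest line for HEY1 and the lowest for HEY2.

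The counts in this paragraph stand beside 9.97% above and 2.92% below of all genes. Of 23 interferon response genes, 4 were above (17.4%). HERC5, the ligase that attaches ISG15 to proteins, was 390.1 and 347 in KMS11, 61.3 and 64.4 in KMS18, 68.9 and 66.2 in KMS34, and 35.2 and 45.1 in OPM2, and its neighbour HERC6 was 109 and 121 against 47.3 to 57.3. IFIT5 and RIGI were above by 0.58 and 0.45, and the RIGI call was lost when the KMS11 knockdown array was left out. In the cell cycle lists, 3 of 22 genes listed under mitosis were above (13.6%) and 0 below. They were CCNE2 (cyclin E2, 484 and 415 against 72.4 to 264), CCNA2 (cyclin A2) and TOP2A (a DNA topoisomerase). CCNE2 is a cyclin of the G1/S step and was not counted in the next list. Of 22 genes of G1/S and DNA replication, E2F1 and CDC6 were above, and the replication genes MCM4 (758 and 649.5 against 1197 to 1414), FEN1 and MCM6 were below. The CDC6 call was lost in 10 of 18 other settings, among them after quantile normalization and when any 1 array was left out. In the BCL2 family, BCL2L1, BID and BAX were above among 17, and after quantile normalization 1 of the 17 was. Of 27 Wnt genes, ROR2, a receptor (134 and 158 against 47.5 to 64.7), NKD2, an inhibitor of dishevelled (510.2 and 527 against 86.6 to 261), and FZD3 were above and 0 below, FZD3 no longer after quantile normalization, and 0 of 8 antigen presentation genes were called.

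The gene families were read beside the same shares of all genes, 9.97% above and 2.92% below. Of 14 cathepsins, proteases of the lysosome, 4 were above (28.6%) and 1 below (7.1%). CTSL was 147 and 147 in KMS11, 55.4 and 58.9 in KMS18, 46.6 and 50.9 in KMS34, and 61.1 and 53.2 in OPM2, CTSO was 638 and 802 against 86.4 to 342, CTSB was 310.5 and 294 against 73.4 to 174, and the member below was CTSC, at 552 and 527 against 791 to 1352. The lysosomal membrane list, with LAPTM4B, LAPTM5 and LAMP2, had 3 of 9 above (33.3%). The LAMP2 call was lost when either KMS11 array was left out. LAPTM5, a lysosomal protein of blood cells, was 2467 and 2775 in KMS11, 1753 and 1688 in KMS18, 69.3 and 68.3 in KMS34, and 57.8 and 74.5 in OPM2, so KMS18 was the nearest line while KMS34 and OPM2 were low. Of 11 semaphorin and plexin genes, a guidance ligand and receptor family, 4 were above (36.4%), led by PLXNA3 at 327 and 309.5 in KMS11, 72.7 and 69.2 in KMS18, 63.3 and 55.5 in KMS34, and 64.4 and 74.5 in OPM2 and PLXND1 at 181 and 211 against 71.1 to 80.8.

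Of 16 ephrins and Eph receptors, the 3 above (18.8%) were all ligands of class A, EFNA3 (396 and 447 against 113 to 207), EFNA4 (360.4 and 353 against 119 to 198) and EFNA1. Of 15 annexins, which bind membranes in the presence of calcium, ANXA9 (333 and 319 against 58.5 to 84.4), ANXA6 (2635 and 2978 against 145 to 1268) and ANXA5 were the 3 above. The ANXA5 call was lost in 7 of 18 other settings, among them when either KMS11 array was left out. Of 14 S100 genes, 2 were above (14.3%), a share near that of all genes. S100A11 was 780.4 and 747 against 348 to 400.5, and S100A4 was 109 and 225 against 57.2 to 77.4. The pair of KMS11 arrays differed by a log2 of 1.05 for S100A4, the largest such gap among the 199 genes at 2-fold, whose median was 0.124. The counts above for cathepsins, plexins, ephrins, annexins and S100 genes were the same after quantile normalization. Among families with fewer calls than all genes, 0 of 29 keratins, 0 of 16 heat shock genes and 0 of 15 SOX genes were called. Of 76 mitochondrial ribosome genes, 1 was above and 5 below, and 8 were below after quantile normalization.

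Genes above and below were spread unevenly over the chromosomes. Over 9768 protein-coding genes, 10.9% were above and 3.0% below. On chromosome 4, 129 of 329 (39.2%) were above and 1.8% below, with a median difference of 0.40 from the mean of the other lines. The same share above was 2.4% in KMS18, 2.1% in KMS34 and 4.6% in OPM2. Chromosome X followed with 23.5% above. Chromosome 11 had 1.4% above and 65 of 575 (11.3%) below, and chromosome 13 had 3.1% above and 22 of 160 (13.8%) below. After quantile normalization the shares were 31.3% above on chromosome 4, 18.1% below on chromosome 11 and 16.2% below on chromosome 13. The share above on chromosome X was then 12.5%. Before that normalization, the calls of the other lines were uneven by chromosome too. In KMS18, 27.1% of chromosome 10 genes were below each other line (8.3% over all chromosomes). In OPM2, 24% of chromosome 3 genes were below (7.9% over all). In KMS34, 17.4% of chromosome 12 genes were above (6.8% over all).

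**Figure D4:**
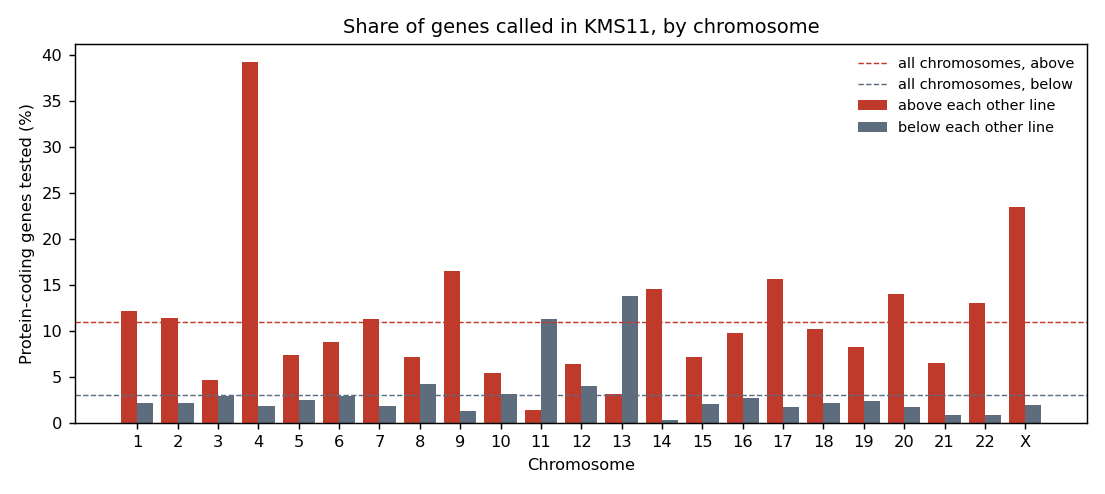
Share (percent, y axis) of tested protein-coding genes called above or below each other line, by chromosome; dashed lines are the shares over all chromosomes, 10.9% and 3.0%. Chromosome 4 has the highest bar above, 39.2%, and chromosomes 11 and 13 the highest bars below, 11.3% and 13.8%.

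Within chromosome 4, the genes above lay mostly in its middle. From SCFD2 to TMEM131L, 96 of 160 tested genes (60.0%) were above and 2 below, and 137 had a difference over 0. From the short-arm end to USP46, 20 of 120 (16.7%) were above, and from TLR2 to FRG1, 13 of 49 (26.5%). These borders were chosen after the values were seen. The middle stretch holds NFKB1, TET2, CCNA2, HERC5 and FGF2, described above with their pathways. Of 18 runs of at least 4 neighbouring tested genes called the same way, all were above and 8 were on chromosome 4. The longest, from MAD2L1 to ANKRD50, had 12 genes, with differences of 0.35 to 1.26, and a run of 8 went from NFKB1 to AIMP1. LGMN lay in a run of 4 on chromosome 14 with TRIP11, ATXN3 and GOLGA5, in which it was far the highest. On chromosome 13, 0 of the first 80 genes, up to MLNR, were above and 21 (26.2%) below, against 5 above and 1 below of the 80 after them. OPM2 differed there too, with 23.8% of chromosome 13 genes above each other line.

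**Figure D5:**
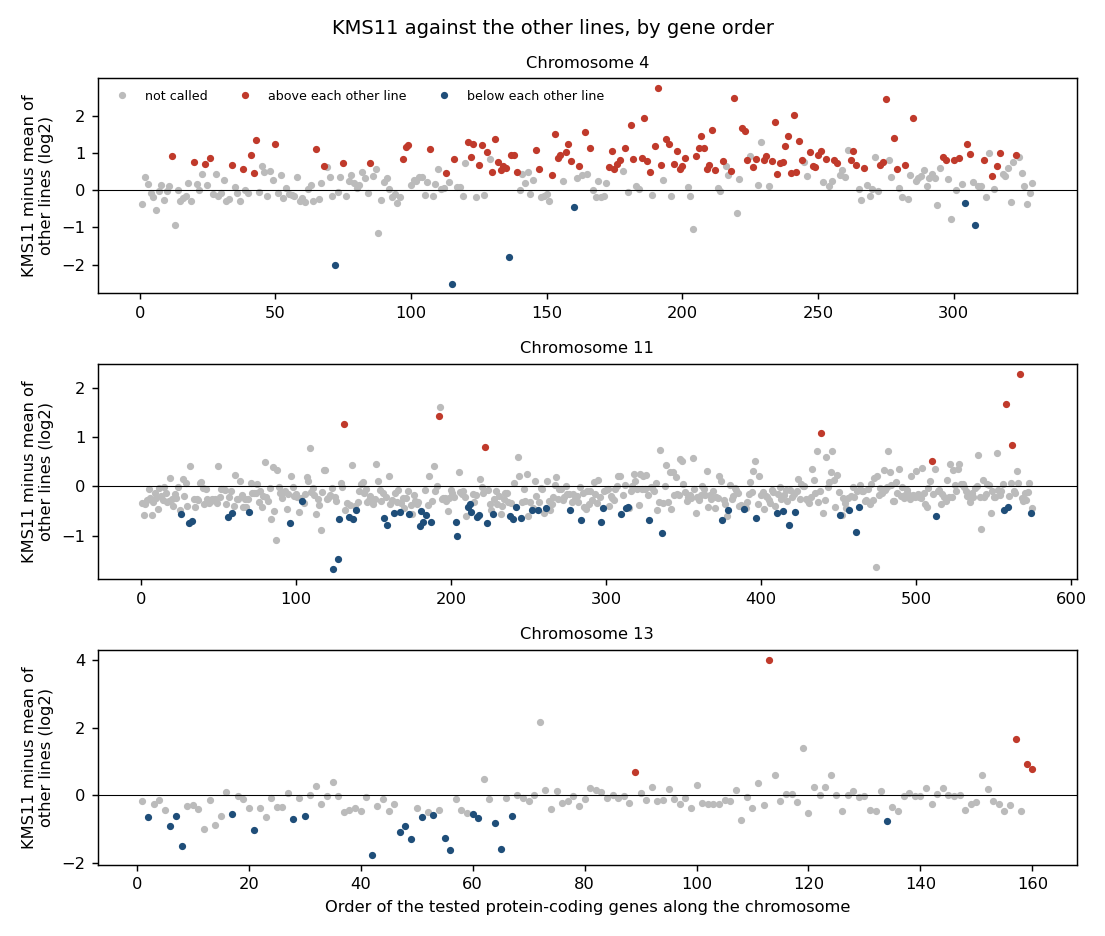
Difference of KMS11 from the mean of the other lines (log2, y axis) for tested protein-coding genes in their order along chromosomes 4, 11 and 13; coloured points were called. On chromosome 4 the points between SCFD2 and TMEM131L lie mostly above 0 (137 of 160), and the calls below on chromosome 13 lie in its first part.

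Some genes that were called together share a promoter region. In 341 head-to-head pairs of tested genes, whose RefSeq promoter windows (250 bases before to 50 after the start, GRCh38.p14) overlap on opposite strands, 63 had a gene above and in 12 of these both were, while 24 had a gene below and in 3 both were. In 0 pairs was a gene above and its partner below. Over all genes tested, 9.97% were above and 2.92% below. How many pairs of each kind these shares alone would give was not worked out, and the part of a shared promoter was not tested. The pair of EAF2 and IQCB1, a gene of ciliary proteins, is on chromosome 3, that of AFG2A, an ATPase of ribosome assembly, and NUDT6 on chromosome 4, and that of ZNF189 and MRPL50, a mitochondrial ribosome protein, on chromosome 9. In each of these pairs both genes were called the same way and at least 1 was at least 2-fold from its nearest line. The pairs of CEP44 and FBXO8 and of GAS6-DT and GAS6 also met this and are not shown. The windows of the plus-strand genes EAF2, AFG2A and ZNF189 are chr3:121834959-121835258, chr4:122922828-122923127 and chr9:101398601-101398900. Capitals mark the 248, 209 and 268 bases that also lie in the partner's window.
EAF2: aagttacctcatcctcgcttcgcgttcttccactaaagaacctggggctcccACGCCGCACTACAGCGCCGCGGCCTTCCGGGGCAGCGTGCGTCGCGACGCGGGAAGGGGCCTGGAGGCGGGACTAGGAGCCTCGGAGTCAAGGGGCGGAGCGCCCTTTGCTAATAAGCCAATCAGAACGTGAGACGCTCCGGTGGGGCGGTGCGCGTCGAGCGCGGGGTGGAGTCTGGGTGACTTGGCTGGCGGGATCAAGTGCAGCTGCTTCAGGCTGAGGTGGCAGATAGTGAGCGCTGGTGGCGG
AFG2A: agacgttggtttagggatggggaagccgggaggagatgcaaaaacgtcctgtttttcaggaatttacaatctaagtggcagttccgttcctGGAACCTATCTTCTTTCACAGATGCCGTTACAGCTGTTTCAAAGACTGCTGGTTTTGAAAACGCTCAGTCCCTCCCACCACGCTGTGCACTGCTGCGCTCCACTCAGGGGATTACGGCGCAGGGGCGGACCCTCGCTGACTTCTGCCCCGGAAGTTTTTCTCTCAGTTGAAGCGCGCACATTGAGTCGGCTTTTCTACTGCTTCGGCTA
ZNF189: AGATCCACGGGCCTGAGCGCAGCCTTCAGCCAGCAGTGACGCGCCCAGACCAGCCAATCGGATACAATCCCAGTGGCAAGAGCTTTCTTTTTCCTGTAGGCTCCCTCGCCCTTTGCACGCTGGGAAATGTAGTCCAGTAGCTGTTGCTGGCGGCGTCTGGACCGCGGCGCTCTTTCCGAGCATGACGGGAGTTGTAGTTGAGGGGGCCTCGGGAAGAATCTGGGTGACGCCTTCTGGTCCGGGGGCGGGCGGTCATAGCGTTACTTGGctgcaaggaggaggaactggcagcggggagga

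From these windows, IQCB1 was below at 181 and 159 in KMS11, 392 and 399.9 in KMS18, 412 and 451 in KMS34, and 413 and 470.4 in OPM2, by 2.33-fold from its nearest line against 3.90-fold for EAF2. AFG2A was 412 and 432 in KMS11, 173 and 179 in KMS18, 175 and 172 in KMS34, and 166 and 150.1 in OPM2. Its difference of 1.26 was larger than that of NUDT6, 0.40. The NUDT6 call was lost in 5 of 18 other settings, among them without the KMS11 knockdown array. AFG2A and NUDT6 lie in the stretch of chromosome 4 from SCFD2 to TMEM131L, where 60.0% of tested genes were above. ZNF189 was 201 and 219 in KMS11 against 64.4 to 103, and MRPL50 was 614 and 608 against 198 to 355, with differences of 1.05 and 0.83. Both genes of each pair had KMS11 arrays outside the range of the others.

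Promoter windows were also searched, on both strands, for the letters of known motifs. TGCTGA, part of the recognition element of MAF factors, was in 9.7% of the 134 windows of genes at least 2-fold above (13 windows), in 3 of 20 windows of genes 2-fold below, in 13.2% of 8530 windows of genes tested and in 17.4% of 27305 windows of the table. The kappa B motif was in 35.8%, 40.0%, 31.2% and 25.1% of these groups of windows, in that order. TGANTCA, the AP-1 element, which can overlap the MAF letters, was in 0.7%, 0.0%, 5.0% and 7.8%. These are matches of letters in a short window and not sites of binding.

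The difference between KMS11 and the other lines was also compared between the control and the knockdown arrays. At an adjusted p under 0.05, limma found 0 genes for which it differed, with 749 at an unadjusted p under 0.05.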

How the data were processed

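RNA of 8 cultures, 1 control and 1 MMSET I knockdown of each of 4 lines, was hybridised to 1-colour Affymetrix arrays. The deposited table holds intensity values on a linear scale, judged from their range, with 1 value per row and array. GeneSpring was the authors' software and 72 h the shRNA time, per the series text. Background correction and normalization: not given in the sources used here. Here log2 of the deposited values was taken. Of 44629 rows, 28794 without a gene symbol were left out, the brightest row stood for each of 14812 genes, and 3703 genes with a mean log2 under the 25th percentile (5.54, intensity 46.7) were left out. In R 4.3.3, limma 3.58.1 was fitted to 11109 genes with line and treatment as terms and 3 contrasts of KMS11. Folds set values under 46.7 to that floor and are lower bounds where the nearest line was under it. On simulated data (200 changed genes, 10 draws), 46% of changes of 0.5 log2 and 91.5% of 1 log2 were found, and 0.362% of calls were false. The simulated noise was normal, independent between genes and arrays, and set to each gene's residual spread, with no treatment effect. Unchanged genes were set level with 1 of the other lines. The false share therefore does not carry over to the calls made here. The symbols of all 11109 genes matched the RefSeq table of GRCh38.p14, which also gave gene order and promoters. Named genes were the markers, NSD2, FGFR3 and MAF, up to 15 genes per direction by fold, up to 4 called members per list and 3 per family, and genes in runs of 4 or more. Unless they were small RNA, LOC, antisense or open reading frame symbols, all were eligible. The 15 per direction came from genes at least 2-fold apart whose KMS11 arrays lay outside the range of the other 6. Uncalled list members named in the text, among them CCND2, CCR1, DEPTOR, DUSP6, SPRY2, EZH2, SDC1, IRF4 and XBP1, were chosen after their values were seen. The members and lists were chosen with earlier results of these data known. Alternatives changed the scaling, filter, row choice, threshold, unit of replication, and the arrays and lines used. The number of arrays limits the precision.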

Additional observations from a re-analysis of the deposited data

Results flagged for a closer look

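In each of the 272 named genes, the lowest and the highest of the 6 arrays of the other lines were compared with the rest, and in 8 genes an array lay farther off than Dixon's 95% value for 6 arrays. For 6 independent arrays, chance alone gives about 1 in 20 groups. The 6 arrays come from 3 lines and are not independent, so that rate does not hold here. The values describe those lines and not KMS11. The low arrays were the OPM2 control for ARHGAP1 (643.7) and FOXN3 (159.1), the OPM2 knockdown for NUDT6 (69.69), the KMS18 control for GALC (58.52), and the KMS34 knockdown for CD72 (40.71) and ROR2 (47.54). The high array was the KMS18 knockdown for PPDPF (486.0, next 418.8) and ZNF267 (188.6, next 160.4).

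Rows of the table without a gene symbol also differed. Of 12697 such rows tested, 108 (0.851%) were at least 2-fold above each other line in KMS11 and 26 (0.205%) at least 2-fold below against 1.57% and 0.225% of the genes with a symbol. These rows are unnamed here.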

How the results depend on the processing

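The counts of genes above, below, and at least 2-fold above or below were 1108, 324, 174 and 25. With lines as the replicates each was 0. With line as a random block they were 82, 9, 81 and 9, and with the 8 arrays as independent, 519 were above and 103 below. These fits compared KMS11 with the other lines as 1 group. They counted only genes whose KMS11 arrays lay outside the range of all arrays of the other lines. An adjusted p under 0.01 left 173 below. At 4-fold in place of 2-fold, 20 were above and 1 below. Without the line KMS34 the counts were 2054, 1287, 348 and 42; without KMS18, 614 were below and 55 at 2-fold; without OPM2, 638 and 58. Leaving out 1 array gave 777 to 967 above, 197 to 264 below, 168 to 202 at 2-fold above and 24 to 28 at 2-fold below; the fewest below came without the KMS11 knockdown (197) and the KMS18 knockdown (214). The counts stayed within 1.5 times with the filter removed or set at the 50th percentile, with a trended robust fit, with rows averaged per gene, with array medians set equal and with quantile normalization. Of 272 named genes, 92 lost their call in at least 1 setting other than the unit of replication. Each line had 1 culture per treatment, and KMS11 is 1 line, so its difference from the other lines has no repeat at the level of lines.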

Other observations

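The shares called in the next 3 lists lay near the 9.97% of all genes above, so the values below are those of single genes. Of 17 tested genes of the unfolded protein response and secretion, 2 were above (11.8%), ERO1B, an oxidase of the endoplasmic reticulum prominent in secretory cells (120.4 and 134 in KMS11, 44.9 and 45.8 in KMS18, 43.3 and 48.3 in KMS34, and 49.6 and 48.5 in OPM2), and ATF6, a stress sensor of that compartment, by a log2 of 0.30. After quantile normalization 1 of the 17 was above. The ATF6 call was lost in 10 of 18 other settings, among them when any 1 array was left out. SGK1, a kinase induced by glucocorticoids, was the 1 gene called of 9 in its list (11.1%), at 211 and 210.2 against 68.9 to 114. CTAG2, a cancer-testis antigen gene on the X chromosome, was the 1 called of 7 (14.3%), at 860.0 and 861 in KMS11, 320.4 and 399.8 in KMS18, 92.0 and 82.8 in KMS34, and 466 and 423 in OPM2. Both KMS11 arrays were above the other 6 for these last 2 genes, and KMS34 had the lowest CTAG2 level.

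Of 51 F-box genes, whose proteins choose the targets of ubiquitin ligases, 7 were above (13.7%) and 0 below, and after quantile normalization 5 were above and 1 below. FBXO16 led them with a log2 difference of 1.39. Of 391 zinc finger genes with ZNF symbols, 39 were above (10.0%) and 9 below (2.3%), beside 9.97% and 2.92% of all genes. ZNF681 was below, at 27.1 and 25.3 against 76.0 to 209, and since both KMS11 values are under the floor of 46.7 it was at least 1.83-fold lower than its nearest line. Among 17 tested aminoacyl-tRNA synthetase genes, which charge transfer RNAs, TARS1 and GARS1 were below, and each of these calls was lost without the KMS11 knockdown array.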
